A study of Mus musculus with 10 samples.

Results

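The genes described are the conjugating transferases of the mouse proximal jejunum in 3 enzyme families: glutathione S-transferases (GST), UDP-glucuronosyltransferases (UGT) and cytosolic sulfotransferases (SULT). Members were chosen by name: all protein-coding genes of the deposited table whose symbol is Gst followed by a, k, m, o, p, t or z and a digit, or Ugt or Sult followed by a digit. The rule gave 44 of the 24368 genes of the table, made up of 21 GST, 12 UGT and 11 SULT genes on 12 chromosomes. No measured value entered the rule.

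The study set mice lacking HuR in the intestinal epithelium against their normal littermates in order to examine fat absorption. HuR, the product of Elavl1, is an RNA-binding protein that recognises stretches rich in A and U in transcripts and affects how long they last and how well they are translated. RNA-seq of total RNA from the proximal jejunum was available for 5 wild-type (WT) mice and 5 mice with a conditional HuR knockout (cKO). The 2 groups share tissue, and the WT mice are described as littermates. The sample labels do not give the litter of each mouse or tie library numbers to litters. The sources used here do not give the Cre driver, the floxed exons, the strain, or the age, sex and diet of the animals. WT libraries carry the numbers 1, 3, 4, 5 and 6 and cKO libraries the numbers 1 to 5.

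Conjugation is the step in which a water-soluble group is joined to a reactive or fat-soluble compound. GST enzymes join glutathione to electrophiles, UGT enzymes of the endoplasmic reticulum join glucuronic acid from UDP-glucuronate, and SULT enzymes of the cytosol join sulfate from the donor PAPS. In the small intestine these enzymes sit mainly in the absorptive enterocytes and act on drugs, dietary plant compounds, bilirubin, steroids and bile acids before they reach the liver. Several members lie in clusters of tandem copies, and the Ugt1a genes share their last exons on 1 locus.

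Values are normalised reads: the read count of a gene divided by 1 size factor per library. Libraries held 16063987 to 18927440 reads in genes. Elavl1 itself had 666 ± 35.97 normalised reads in WT libraries against 633 ± 60.6 in cKO libraries (mean ± SD, n = 5 each), a log2 fold change of -0.08 (adjusted p = 0.798 in limma). Exact permutation of the 10 library values (two-sided) gave p = 0.341, where 0.00794 is the smallest p that could arise. The count covers the whole gene and the position of the deletion is not given, so the level does not check the labels. Per2, a clock gene, stood at 12.7 normalised reads in cKO 3 and 16.0 in cKO 5 against at least 342 in the other 8 libraries. The sample labels give no sampling time, and the cause of the low Per2 was not tested. Of 15 tested clock genes 5 had positive and 10 negative log2 fold changes, with no call. The values without cKO 3 and cKO 5 are given for each member with values in every library and for the pathway genes named. In bulk tissue, fewer cells of a type and less RNA per cell cannot be told apart.

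Among WT levels per kilobase of gene length, the 3 families together were led by Sult1b1, a sulfotransferase of phenols and thyroid hormones, with 6070 ± 1230 normalised reads per kb. Within the SULT family Sult1d1, which acts on catechols, followed at 3575 ± 1011, and the ranges of the 5 libraries of these neighbours overlapped. Sult2b1, the cholesterol sulfotransferase, stood at 1505 ± 154 and Sult6b2 at 1183 ± 212, again with overlapping ranges. Sult1a1, a phenol sulfotransferase, was far below them at 54.5 ± 17.7 and Sult4a1, known mostly from brain, at 7.41 ± 2.82. The other 5 SULT genes did not pass the filter described below.

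In the GST family Gstp1 and Gsto1 shared the top, at 3916 ± 524 and 3898 ± 410 normalised reads per kb in WT, with overlapping ranges. Gstp1 is the pi-class enzyme, and Gsto1 is an omega-class enzyme known for thiol transfer and the reduction of dehydroascorbate. Gsta1 of the alpha class followed at 1352 ± 271 per kb, apart from the range of the pair above it. The mu-class genes Gstm3 at 1126 ± 536 and Gstm1 at 804 ± 278 came next, and neither was apart from its neighbour. At the low end stood Gsta3 at 24.5 ± 8.50 and Gsta2 at 21.04 ± 6.49, above Gsto2 at 1.29 ± 1.21. Some of these levels are uncertain because stretches of 50 bases in the transcripts also occur in another gene. Such stretches made up 90.5% for Gsta1, 49.8% for Gsta2, 33.7% for Gstp1, 28.8% for Gstm3 and 18.9% for Gstm1.

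Ugt2b34 led the UGT family with 2514 ± 1056 normalised reads per kb in WT, apart from all other UGT genes. Ugt2a3, linked to bile acid glucuronidation, stood at 631 ± 291 per kb and Ugt1a7c, which acts on phenols, at 591 ± 109, with overlapping ranges. Ugt1a1, the bilirubin-conjugating enzyme, followed at 270 ± 66.5 per kb. Of the 50-base stretches of Ugt1a1 and Ugt1a7c, 58.2% and 53.7% also occur in another gene, against 1.44% for Ugt2b34. The Ugt1a levels and their place in this order are therefore uncertain. The remaining Ugt2b genes that passed the filter lay between 12.9 per kb (Ugt2b38) and 56.7 per kb (Ugt2b5).

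**Figure D1:**
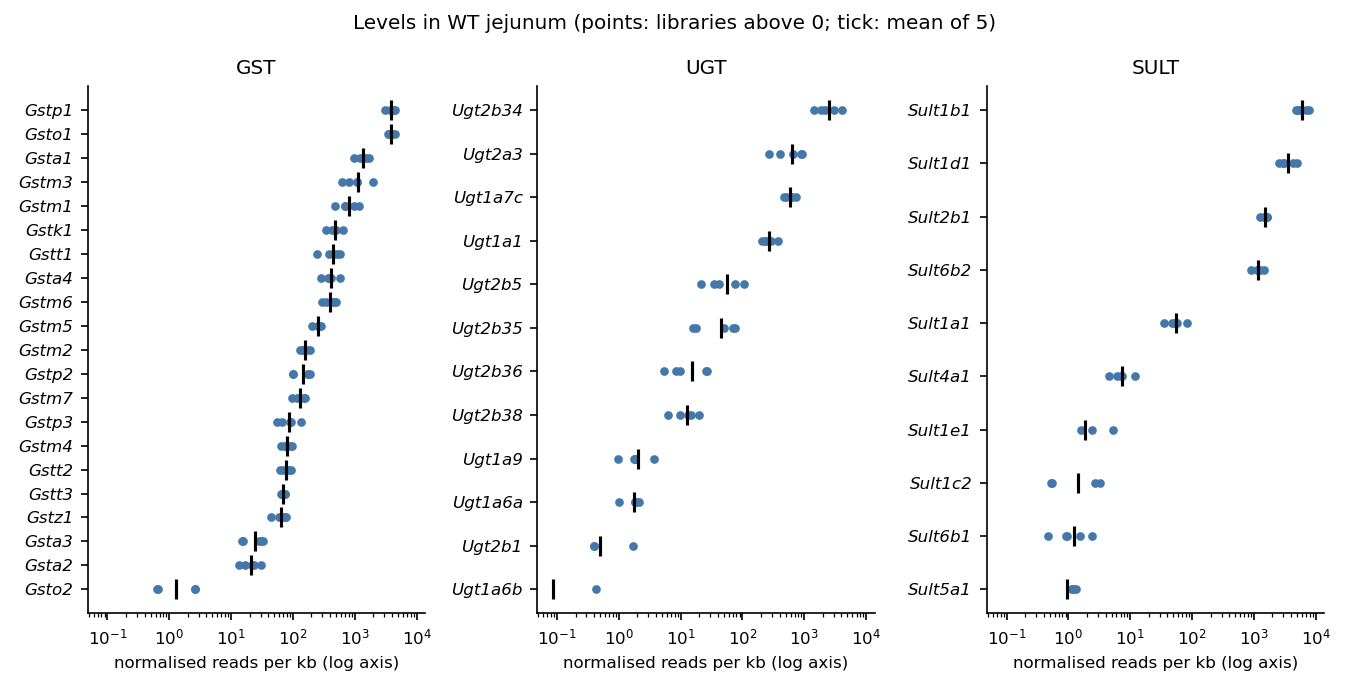
WT level of each member in normalised reads per kb of gene length on a log axis, with 1 panel per family. Points are libraries above 0 and the tick is the mean of 5. Sult1c1 is not drawn because it had no read in WT. Sult1b1 at 6070, Gstp1 at 3916 and Ugt2b34 at 2514 lead their families.

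Read without regard to length, UGT and SULT reads came mostly from 1 or 2 genes. Ugt2b34 held 69.5% of all UGT reads in WT and 73.7% in cKO. The uncertain Ugt1a counts enter these shares. Sult1b1 held 49.2% of SULT reads in WT and 54.3% in cKO, and Sult1d1 25.6% and 29.4%. Gsto1 held 39.4% of GST reads in WT and 25.3% in cKO, where Gstm3 came next with 18.7%. The summed GST level was 19447 ± 2281 normalised reads in WT and 21072 ± 4796 in cKO, the summed UGT level 15595 ± 5844 and 12635 ± 5508, and the summed SULT level 34275 ± 5597 and 31843 ± 8199. In each family the difference between group means was smaller than the SD of the cKO libraries.

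A test was run for genes with a mean of at least 10 normalised reads over the 10 libraries, with limma on log2(value + 1) and Benjamini-Hochberg adjustment over all 14062 such genes. Of the 44 members 34 passed that filter: 20 GST, 8 UGT and 6 SULT genes. The members below it were Gsto2, Ugt1a6a, Ugt1a6b, Ugt1a9, Ugt2b1, Sult1c1, Sult1c2, Sult1e1, Sult5a1 and Sult6b1, and their means over the 10 libraries reached at most 9.30 (Ugt1a6a). Ugt1a9 among them had between 2.17 and 8.18 normalised reads in the WT libraries, 3.81 in cKO 1 and none in the other 4 cKO libraries, a level too low for a test here. Of the 50-base stretches of Ugt1a6a, Ugt1a6b and Ugt1a9, 52.1%, 79.8% and 62.0% also occur in another gene. Their low counts are therefore uncertain.

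Among the 34 tested members 4 passed an adjusted p of 0.05, against 1.32% of all genes tested. The theta-class gene Gstt2 and the mu-class gene Gstm4 rose in cKO, where 0.441% of all genes tested rose. The pi-class gene Gstp3 and the sulfotransferase gene Sult6b2 fell, where 0.882% of all genes tested fell. No UGT gene passed the test, although all 8 tested UGT genes had negative log2 fold changes. At an unadjusted p under 0.05 stood 13 of the 34 members (38.2%), against 18.6% of all genes tested.

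**Figure D2:**
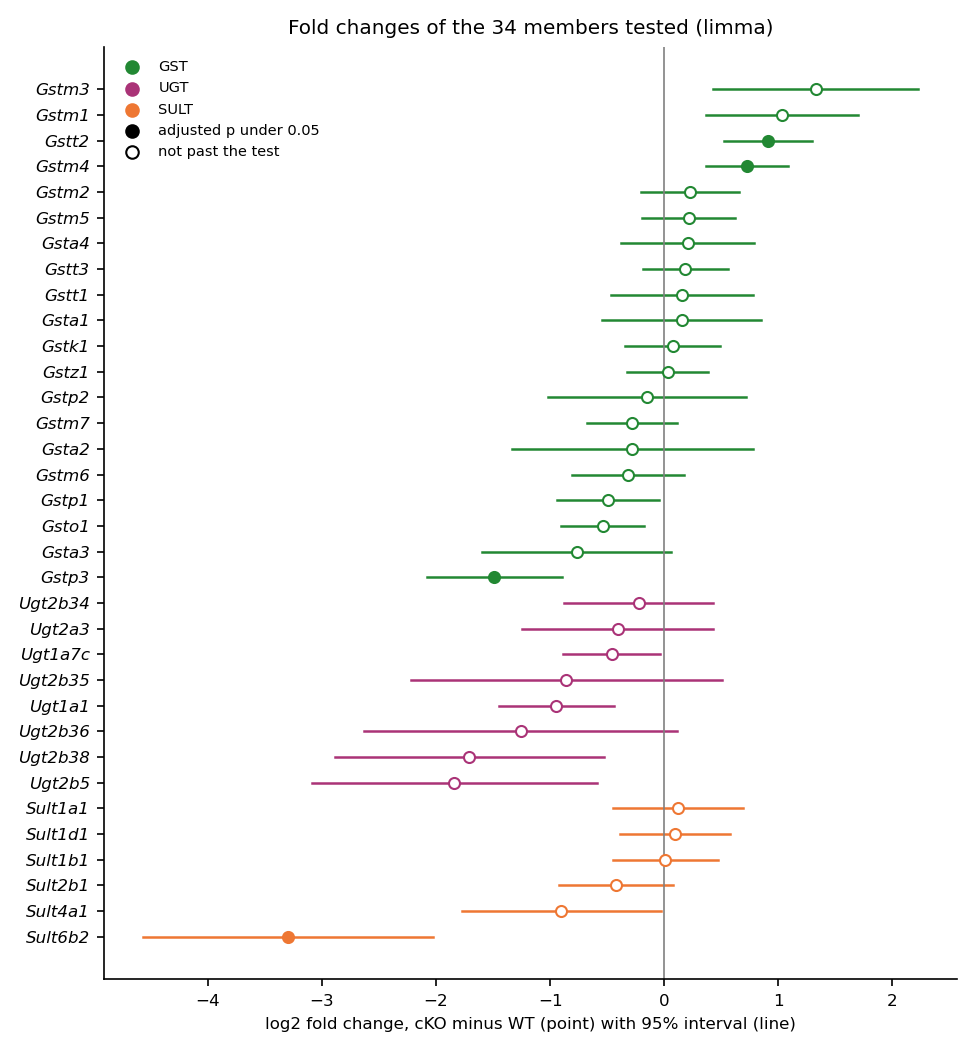
Log2 fold change (cKO minus WT) of the 34 tested members by family, with the 95% interval from limma. Filled points mark the 4 members with an adjusted p under 0.05: Gstt2 at 0.91, Gstm4 at 0.73, Gstp3 at -1.49 and Sult6b2 at -3.30. All 8 UGT points lie left of 0.

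HuR is known to bind AU-rich stretches, so the pentamer ATTTA was counted in the 3′ UTR of each member in the GENCODE M21 annotation (GRCm38), a choice made after the values were seen. Of 33 tested members with a 3′ UTR, 14 held it (42.4%), against 66.1% of 12650 tested genes. The families differed: it was in 2 of 20 GST genes, 8 of 8 UGT genes and 4 of 5 SULT genes. Ugt1a1 and Ugt1a7c share their last exons, and Ugt2b5 and Ugt2b38 share sequence, so the 8 UGT genes are not 8 separate cases. The median 3′ UTR was 283 bases in GST, 526.5 in UGT and 1292 in SULT genes, against 964 bases in all genes tested, and per kb there were 0.696, 4.25 and 1.59 copies against 1.82. The pentamer TTTTT, counted in the same 3′ UTRs, was less frequent in each family than in all genes tested. It had 4.178 copies per kb in GST, 5.011 in UGT and 4.164 in SULT genes, against 6.001. The UGT genes thus stood above all genes tested for ATTTA but below them for TTTTT. These counts describe the letters only and say nothing of binding.

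The first site of members with large differences is shown with ATTTA in capitals and at most 12 bases on each side, 5′ to 3′ in DNA letters. Gstt2 holds 4 copies, overlapping in a run, while Gstm4 and Gstp3 hold none. The Ugt1a genes share 1 site, and those of Ugt2b5 and Ugt2b38 differ in few letters.
Gstt2: tttttaaaaaatATTTAtttatttattta
Sult6b2: tattttctgcctATTTAgtcaatcatggc
Ugt1a1: tacattcagcacATTTAaaaataataata
Ugt2b5: agcctcattcttATTTAtgaaccaccttc
Ugt2b38: accctcattctaATTTAtgaaccaccttc

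Promoter windows from RefSeq (GRCm38.p6, 250 bases before to 50 after the gene start) were found for 40 of the 44 members, not for Gsta4, Gstt2, Sult4a1 and Ugt1a6b. They were searched on both strands for 4 motifs, also chosen after the values were seen. GTTAAT, the core of the motif of HNF1, a factor of enterocytes and liver cells, was in 7 of the 40 members (17.5%) and in 8.24% of all 27025 genes with a window. A gene counts as a holder where any of its windows has the motif. Its holders were Gsta3, Sult1a1, Sult1d1, Ugt1a1, Ugt1a6a, Ugt1a9 and Ugt2a3. TGACNNNGC, the core bound by Nrf2, was in 3 members (7.5%) and 13.99% of genes, GCGTG, the core bound by the aryl hydrocarbon receptor, in 9 (22.5%) and 35.2%, and TATAAA in 7 (17.5%) and 15.7%. A match is a run of letters, not a measured site.

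The 250 bases before the start are shown for Sult6b2 and Gstp3, the members that fell, and for Ugt1a1 and Ugt2a3, which carry GTTAAT close to the start. Capitals mark the matches: TATAAA on the opposite strand at -129 in Sult6b2 (chr6:142804467-142804716, minus strand), GCGTG at -235 in Gstp3 (chr19:4059448-4059697, minus strand), GTTAAT on the opposite strand at -41 in Ugt1a1 (chr1:88211709-88211958, plus strand), and 2 copies of GTTAAT at -54 and -47 in Ugt2a3 (chr5:87337196-87337445, minus strand).
Sult6b2: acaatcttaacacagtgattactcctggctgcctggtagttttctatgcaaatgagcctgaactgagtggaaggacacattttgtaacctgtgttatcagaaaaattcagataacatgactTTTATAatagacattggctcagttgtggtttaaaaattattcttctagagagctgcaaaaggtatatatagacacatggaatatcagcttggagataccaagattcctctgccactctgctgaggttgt
Gstp3: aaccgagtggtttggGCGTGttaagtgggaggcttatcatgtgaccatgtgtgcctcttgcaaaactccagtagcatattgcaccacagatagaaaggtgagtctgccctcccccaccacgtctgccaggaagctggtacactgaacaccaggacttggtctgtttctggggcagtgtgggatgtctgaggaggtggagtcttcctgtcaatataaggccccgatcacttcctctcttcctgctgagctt
Ugt1a1: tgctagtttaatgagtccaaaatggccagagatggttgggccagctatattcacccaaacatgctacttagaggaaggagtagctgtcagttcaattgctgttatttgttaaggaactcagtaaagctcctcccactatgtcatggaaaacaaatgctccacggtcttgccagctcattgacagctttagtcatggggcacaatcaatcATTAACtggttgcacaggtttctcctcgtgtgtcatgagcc
Ugt2a3: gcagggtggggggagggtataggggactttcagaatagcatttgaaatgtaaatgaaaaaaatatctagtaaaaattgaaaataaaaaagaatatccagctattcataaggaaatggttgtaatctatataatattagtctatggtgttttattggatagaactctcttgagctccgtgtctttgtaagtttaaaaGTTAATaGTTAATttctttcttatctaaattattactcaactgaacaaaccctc

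Gstt2, a theta-class enzyme (chr10:75831114-75837424, minus strand, mm10), had 360, 336, 392, 257 and 284 normalised reads in WT 1, 3, 4, 5 and 6. In cKO 1 to 5 it had 843, 656, 540, 594 and 467. Every cKO library was above every WT library, with cKO 1 the highest. The means were 326 ± 55.0 and 620 ± 143 (± SD over 5 libraries each, as for all means here), a rise of 0.91 ± 0.18 (SE) on the log2 scale or 1.88-fold (95% interval 0.53 to 1.30 in log2, limma adjusted p = 0.0269). Without cKO 3 and cKO 5 the log2 fold change was 1.10 (limma adjusted p = 0.0250). Leaving out WT 3, WT 4, WT 5 or WT 6 ended the call, with adjusted p up to 0.0743 and log2 fold changes between 0.80 and 1.01 over the 10 fits that each leave out 1 library. Without WT 3, WT 4, WT 5 or WT 6, 0.213% to 0.476% of all genes tested were called, against 1.32% with all libraries. Over all 10 such fits the share was 0.213% to 4.35%, which applies to the genes below too.

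Its neighbours in the theta cluster on chromosome 10 (75774115 to 75837424) did not pass the test. Gstt1 had a log2 fold change of 0.16 (672.7 ± 193 against 771 ± 278) and Gstt3 of 0.19 (268 ± 18.2 against 312 ± 76.8), with overlapping groups in both.

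Gstm4, a mu-class enzyme (chr3:108040408-108044894, minus strand), had 126, 167, 154, 126 and 112 normalised reads in the WT libraries. The cKO libraries had 243, 242, 201, 197 and 248. The groups did not overlap, and the spread within each was small. The means were 137 ± 22.9 and 226 ± 25.1, a rise of 0.73 ± 0.17 in log2 or 1.66-fold (95% interval 0.37 to 1.09, limma adjusted p = 0.0465). This call was near the threshold: in the fits that each leave out 1 library it held only without cKO 4, with adjusted p between 0.0315 and 0.117, and without cKO 3 and cKO 5 together the log2 fold change was 0.74 with an adjusted p of 0.154.

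Gstm4 is the last of 7 mu-class genes in 149 kb of chromosome 3 (107895821 to 108044894). In chromosome order the log2 fold changes were 0.22 for Gstm5, -0.28 for Gstm7, -0.32 for Gstm6, 1.33 for Gstm3, 0.23 for Gstm2, 1.04 for Gstm1 and 0.73 for Gstm4. The 3 larger positive values thus belonged to Gstm3, Gstm1 and Gstm4, with Gstm2 between them near 0. Of their 50-base stretches, 28.8% for Gstm3 and 18.9% for Gstm1 also occur in another gene, and none for Gstm4. The counts of Gstm3 and Gstm1 are thus in part uncertain.

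Gstm1 had 1431, 1010, 1748, 697 and 1035 normalised reads in WT and 2370, 5117, 1931, 1667 and 1691 in cKO. Its groups overlapped by 1 WT library, WT 4, and cKO 2 stood far above the rest. Limma gave adjusted p = 0.110 for Gstm1. Gstm3 had 1428, 1446, 2638, 805 and 1061 in WT and 1703, 7206, 3577, 2059 and 5185 in cKO, where the highest WT library exceeded cKO 1 and cKO 4. Limma gave adjusted p = 0.126 for Gstm3, while DESeq2 gave 0.0189 for Gstm1 and 0.00754 for Gstm3. The log2 fold changes with cKO 3 and cKO 5 left out were 1.27 for Gstm1 (limma adjusted p = 0.195) and 1.11 for Gstm3 (0.431).

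Gstp3 (chr19:4057477-4059446, minus strand) lies in the pi cluster beside Gstp1 and Gstp2. It had 47.0, 39.5, 96.5, 62.8 and 66.1 normalised reads in WT and 20.3, 16.4, 24.6, 26.6 and 16.8 in cKO. All cKO libraries were below the lowest WT library. The means were 62.4 ± 22.0 and 20.95 ± 4.58, and Gstp3 fell by 1.49 ± 0.28 on the log2 scale, a level 2.81-fold lower (95% interval -2.08 to -0.90, limma adjusted p = 0.0213). Leaving out WT 4, WT 5 or WT 6 ended the call (adjusted p up to 0.0721), as did leaving out cKO 3 and cKO 5 together (0.0764), at a log2 fold change of -1.48.

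The far more abundant Gstp1 had 2964 ± 396 normalised reads in WT and 2184 ± 725 in cKO, with a log2 fold change of -0.49 (limma adjusted p = 0.226). Gstp2 had 114 ± 33.1 and 118 ± 71.4, with -0.15 in limma, which averages log2 values, and 0.05 with both edgeR (TMM) and DESeq2. Gstp1 and Gstp2 are near-identical copies: of all stretches of 50 bases in their transcripts, 33.7% of those of Gstp1 and 54.3% of those of Gstp2 also occur in another gene, so their counts can trade reads. None of those of Gstp3 do, and its short 3′ UTR holds no ATTTA.

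Gsto1 was lower in every cKO library without passing the test. It had 6780, 7089, 8008, 7645 and 8836 normalised reads in WT and 5108, 6536, 4005, 5953 and 5035 in cKO. The log2 fold change was -0.54 (95% interval -0.90 to -0.18, limma adjusted p = 0.119), and DESeq2 adjusted it to 0.0346. With cKO 3 and cKO 5 left out, Gsto1 had a log2 fold change of -0.39 (limma adjusted p = 0.367). Groups that did not overlap were found for 2 members higher in cKO (Gstt2 and Gstm4), against 1.86% of all genes tested, and for 4 lower members (Gsto1, Gstp3, Ugt1a1 and Sult6b2), against 3.01%.

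The alpha-class genes, which reduce lipid hydroperoxides, gave no call. Gsta1 had a median of 1294 in WT and 1034 in cKO, and cKO 1 alone reached 3700. Its log2 fold change was 0.15 (limma adjusted p = 0.836), turning to -0.19 without cKO 1 and standing at 0.50 without cKO 3 and cKO 5 (limma adjusted p = 0.572). In the same count 90.5% of the 50-base stretches of Gsta1 occur in another gene, so its reads may be shared. Gsta3 had a log2 fold change of -0.77 (106 ± 36.9 against 68.8 ± 42.2, adjusted p = 0.306 in limma), or -0.23 without cKO 3 and cKO 5, and Gsta4 of 0.20. Gsta2 had -0.28 in limma but 0.15 with edgeR (TMM) and 0.18 with DESeq2, and its highest cKO library was cKO 1 at 85.2. Gstk1, a mitochondrial and peroxisomal enzyme, and Gstz1, which works in tyrosine breakdown, stood at 0.08 and 0.03.

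**Figure D3:**
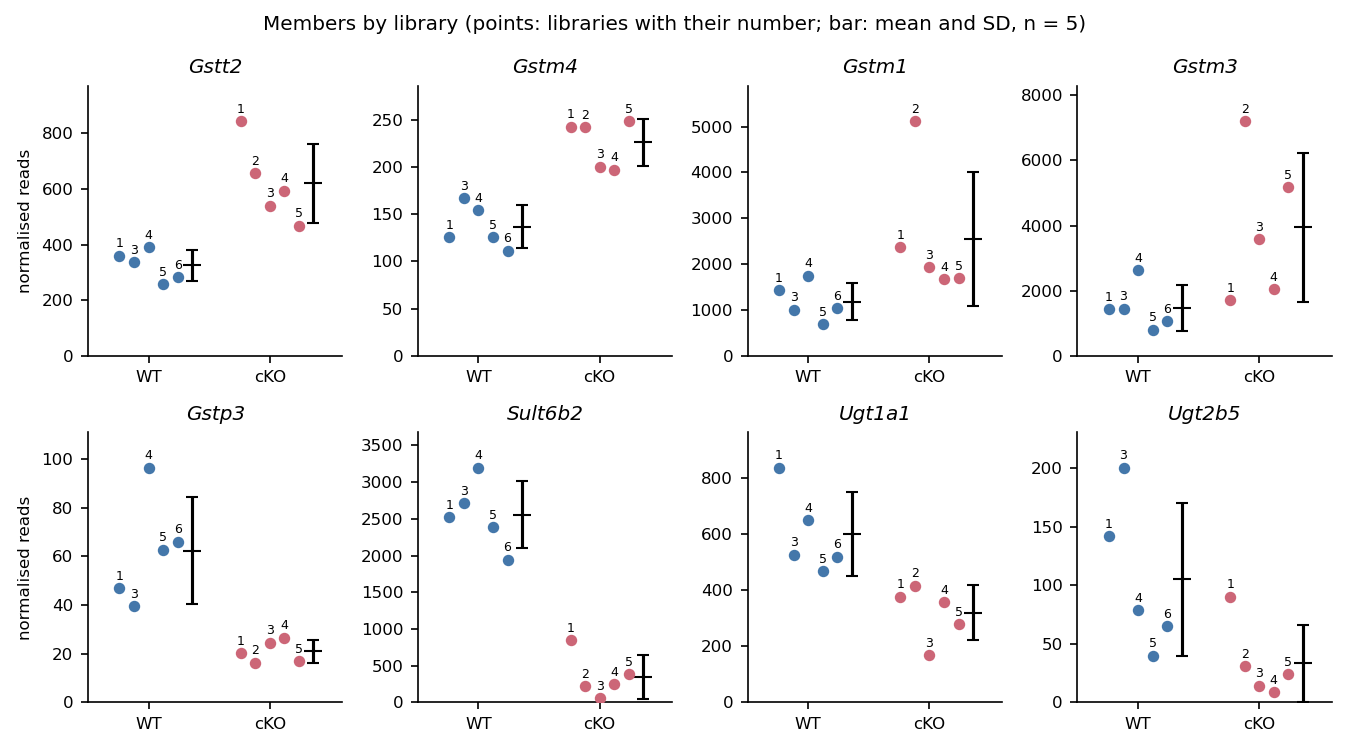
Normalised reads of 8 members in every library. Points are libraries with their number, and the bar gives the mean and SD of 5. Gstt2 and Gstm4 lie higher, and Gstp3, Sult6b2 and Ugt1a1 lower, in every cKO library than in any WT library. Gstm1, Gstm3 and Ugt2b5 overlap.

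The UGT genes had the lowest median log2 fold change of the 3 families, at -0.90 over 8 genes (range -1.84 to -0.22), against 0.01 over all genes tested. The GST median was 0.11 over 20 genes, 12 of them positive, and the SULT median -0.20 over 6 genes, 3 of them positive. Without cKO 3 and cKO 5 these medians were 0.14 for GST, -0.64 for UGT and 0.06 for SULT. Leaving out WT 5 or cKO 1 took the GST median to -0.03 and -0.01. Of all genes tested, 49.0% had a negative log2 fold change. Neighbouring UGT genes share libraries and sequence and are not independent of each other. The UGT genes also varied more among WT mice than other genes did: their median coefficient of variation in WT was 44.1%, against 20.1% for GST, 24.3% for SULT and 19.6% for all genes tested. In cKO it was 64.3%, against 32.6%, 37.8% and 27.8%.

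Ugt1a1 (chr1:88211959-88218997, plus strand) came nearest to the threshold. It had 836, 527, 649, 468 and 519 normalised reads in WT and 376, 416, 167, 357 and 278 in cKO. No cKO library reached the lowest WT library, and cKO 3 was the lowest. The means were 600 ± 148 and 319 ± 98.5, with a log2 fold change of -0.94 ± 0.24 (95% interval -1.45 to -0.44, limma adjusted p = 0.0625, DESeq2 adjusted p = 0.0121). It was -0.62 without cKO 3 and cKO 5 (limma adjusted p = 0.232). Ugt1a7c of the same locus had 2494 ± 459 and 1841 ± 508, a log2 fold change of -0.46 (limma adjusted p = 0.231). Because the Ugt1a genes share exons, 58.2% of the 50-base stretches of Ugt1a1 and 53.7% of those of Ugt1a7c occur in another gene, and both counts are uncertain.

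The other UGT genes lie within 86889767 to 87424203 of chromosome 5. Ugt2b5 had 142, 200, 78.9, 39.9 and 65.0 normalised reads in WT and 90.3, 30.9, 14.3, 8.53 and 24.05 in cKO. Only cKO 1 lay inside the WT range. The log2 fold change was -1.84 (95% interval -3.09 to -0.59, limma adjusted p = 0.126), and without cKO 3 and cKO 5 it was -1.59 with adjusted p = 0.430. In the fits that each leave out 1 library it ran from -2.30 to -1.49 with adjusted p between 0.0381 and 0.295, and only the fit without cKO 1 gave a call.

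Ugt2b38 had 37.8, 25.3, 28.3, 11.97 and 18.4 normalised reads in WT and 12.7, 18.2, 0.793, 6.40 and 4.81 in cKO, with a log2 fold change of -1.71 (limma adjusted p = 0.126), or -0.93 without cKO 3 and cKO 5 (0.420). Ugt2b5 and Ugt2b38 share 41.7% and 37.4% of their 50-base stretches with other genes, mainly with each other. Ugt2b36 had -1.26 (limma adjusted p = 0.310) and Ugt2b35 -0.86 (0.481). They had -1.18 (0.567) and -0.66 (0.779) without cKO 3 and cKO 5. The abundant members had values nearer to 0: Ugt2a3 had -0.41 (limma adjusted p = 0.599), and Ugt2b34 had 10839 ± 4554 in WT and 9316 ± 4445 in cKO, or -0.22 (95% interval -0.88 to 0.43, limma adjusted p = 0.734). These stood at -0.12 and 0.02 without cKO 3 and cKO 5.

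Single libraries ordered the UGT genes alike. Among WT, WT 5 was the lowest library for 8 of 8 tested UGT genes and for 13 of 20 GST genes, and WT 1 or WT 3 was the highest for all 8 UGT genes. Among cKO, cKO 1 was the highest for 6 of 8 and cKO 3 the lowest for 5 of 8. WT 1 and WT 3 carried 5.73% and 5.88% mitochondrial reads against 2.69% to 3.33% in the other WT libraries. The share was 9.48% in cKO 1 against 2.80% to 6.09% in the other cKO libraries. The 6.09% belonged to cKO 3, so a higher share did not go with higher UGT levels in every library. The part of the mitochondrial share in the UGT levels was not tested.

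**Figure D4:**
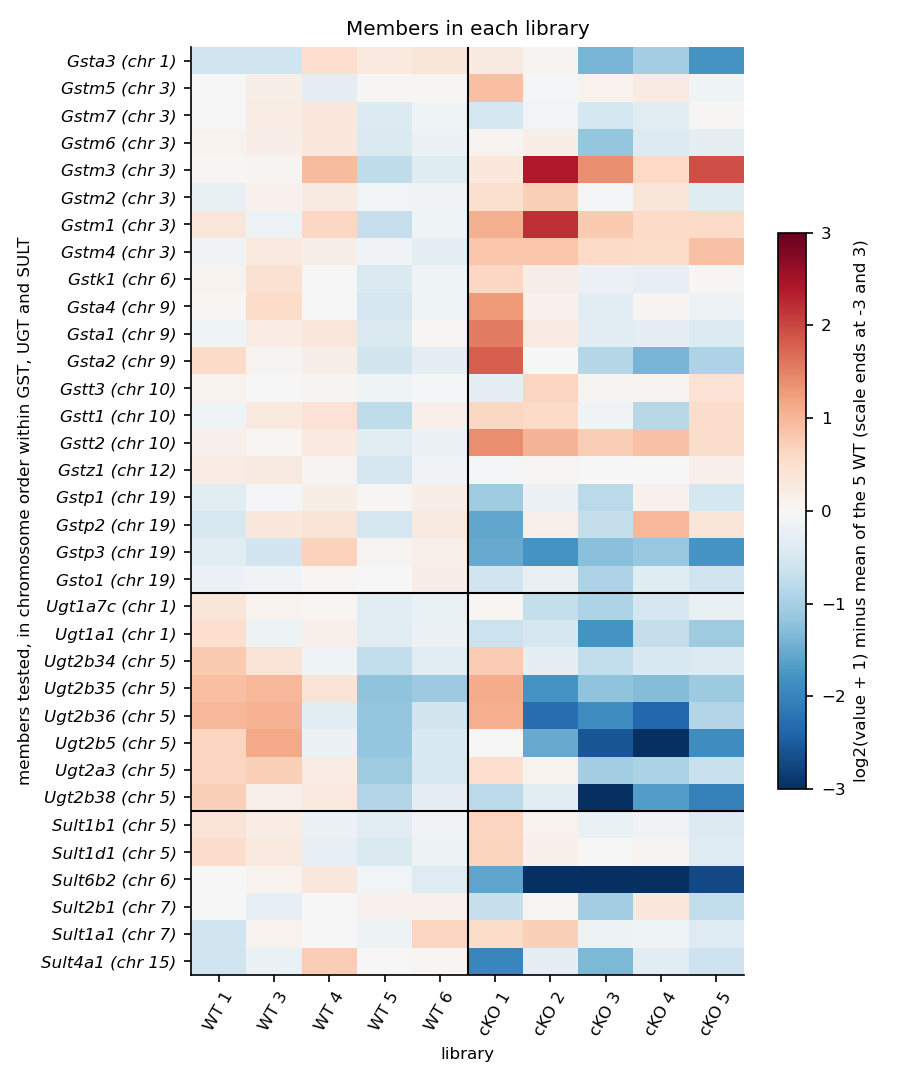
Each tested member in each library as log2(value + 1) minus the mean of the 5 WT, with GST, UGT and SULT genes in blocks ordered along the chromosomes. The scale ends at -3 and 3. The UGT block is blue in WT 5 and in cKO 3 to 5 and red in WT 1, and in cKO 1 it is red for Ugt2a3, Ugt2b34, Ugt2b35 and Ugt2b36.

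Sult6b2 had the lowest log2 fold change of all members (chr6:142785204-142804502, minus strand). It had 2525, 2718, 3196, 2389 and 1944 normalised reads in WT and 846, 220, 61.8, 245 and 383 in cKO. The highest cKO library, cKO 1, was below the lowest WT library, WT 6, and the cKO libraries spread over more than their own mean. The means were 2554 ± 458 and 351 ± 299, and Sult6b2 fell by 3.30 ± 0.57 on the log2 scale, a level 9.83-fold lower (95% interval -4.57 to -2.03, limma adjusted p = 0.0314). That fold is taken between means of log2 values, not between the 2 means given. On the recovered reads of all 10 libraries the log2 fold change was smaller in size. It was -2.88 with edgeR's quasi-likelihood test (adjusted p = 0.0404) and -2.86 with DESeq2 (adjusted p = 8.92e-05). Without cKO 3 and cKO 5 the limma log2 fold change was -2.81 (adjusted p = 0.0119 in limma).

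In the fits that each leave out 1 library, the call on Sult6b2 held without cKO 1, cKO 3 or cKO 4 and was lost without any of the 5 WT libraries, cKO 2 or cKO 5, with adjusted p up to 0.0871. Its log2 fold change stayed between -3.73 and -2.79 in those fits. In the authors' deposited table, whose comparison may include libraries not used here, Sult6b2 has a log2 fold change of -1.65 and an adjusted p of 0.190.

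The leading sulfotransferases did not differ beyond their spread. Sult1b1 had 21587, 19250, 14625, 13421 and 15492 normalised reads in WT and 25999, 17977, 14504, 15445 and 12496 in cKO, a log2 fold change of 0.01 with a 95% interval of -0.45 to 0.47, or 0.22 without cKO 3 and cKO 5. Sult1d1, its neighbour on chromosome 5, had 8790 ± 2486 and 9375 ± 2572, or 0.10. Both were highest in WT 1 and cKO 1 and lowest in WT 5 and cKO 5. Sult2b1 had -0.42 (5943 ± 608 against 4719 ± 1926, limma adjusted p = 0.351), Sult4a1 -0.90 (18.6 ± 7.09 against 9.96 ± 4.71, limma adjusted p = 0.253) and Sult1a1 0.12. Values without cKO 3 and cKO 5 were -0.11, -0.85 and 0.39.

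The set of members called differed between fits. EdgeR's quasi-likelihood test on the recovered reads called the same 4 members, with 1.29% of all genes called. DESeq2 called 8 members, adding Gstm1, Gstm3, Gsto1 and Ugt1a1, with 5.33% of all genes called. Without cKO 3 and cKO 5, limma called 2 members, Gstt2 and Sult6b2, with 0.398% of all genes called. The authors' deposited table lists 8 members with an adjusted p under 0.05, against 2.49% of all its genes: Gstm1, Gstm3, Gstm4 and Gstt2 higher, and Gstp3, Ugt1a1, Ugt2b38 and Ugt2b5 lower.

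Ratios between neighbours of a cluster, taken within each library, were added after the values were seen. With 5 libraries in each group the exact two-sided permutation test cannot give a p under 0.00794, so a single pair at that value could not pass an adjustment over the 19 pairs. The smallest adjusted p was 0.101, and the ratios are given as values. For Ugt2a3 over Ugt2b5 the log2 ratio was 3.73 ± 0.30 in WT and 5.16 ± 0.67 in cKO, without overlap (exact permutation p = 0.00794, n = 5 each). For Gstm3 over Gstm6 it was 0.79 ± 0.37 and 2.43 ± 0.98 (exact permutation p = 0.0159). The log2 ratio of Sult1d1 to Sult1b1 was -0.96 ± 0.11 and -0.88 ± 0.09.

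The genes that supply, use or export around these enzymes were read in 8 lists with 104 tested genes, of which 1 rose and 3 fell (median log2 fold change -0.16), where 0.441% of all genes tested rose and 0.882% fell. Among 12 tested genes of PAPS supply and sulfate release 2 fell and none rose. Papss2, which makes PAPS, had 17053, 10491, 20367, 20839 and 11824 normalised reads in WT and 7280, 6855, 4027, 8576 and 7001 in cKO. All cKO libraries were below all WT libraries, and Papss2 fell by 1.24 on the log2 scale, 2.37-fold (limma adjusted p = 0.0254). Its log2 fold change without cKO 3 and cKO 5 was -1.04 (limma adjusted p = 0.0941). Leaving out WT 1, WT 4 or WT 5 also ended the call (adjusted p up to 0.0826).

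Slc13a1, a sodium-coupled sulfate carrier of the apical membrane, had 2935, 1905, 2784, 2488 and 1816 in WT and 1236, 850, 233, 608 and 404 in cKO. It fell by 2.04 in log2, 4.10-fold (limma adjusted p = 0.0254, or -1.44 with 0.0187 without cKO 3 and cKO 5), and the call was lost without WT 1, WT 3, WT 4, WT 5 or cKO 5 (up to 0.0754). The summed level of this list was 33674 to 46701 in WT and 16444 to 29069 in cKO.

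Of 12 tested genes of glutathione supply 1 fell. Gclm, the modifier subunit of the enzyme that starts glutathione synthesis, had 3394, 3631, 3368, 3527 and 4034 normalised reads in WT and 1740, 2957, 1169, 2284 and 1290 in cKO, without overlap. Gclm fell by 1.01 in log2 (limma adjusted p = 0.0394), and without cKO 3 and cKO 5 the log2 fold change was -0.66 (0.175). In the fits that each leave out 1 library its call held only without cKO 2 or cKO 4 (adjusted p up to 0.102 otherwise).

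Of 10 tested exporters 1 rose. Abcg2, an apical pump for sulfate and glucuronide conjugates, had 3757, 3813, 3498, 2629 and 3088 in WT and 9182, 5016, 7765, 4420 and 7995 in cKO. Every cKO library was above every WT library, and Abcg2 rose by 0.99 in log2, 1.99-fold (limma adjusted p = 0.0353). The log2 fold change of Abcg2 without cKO 3 and cKO 5 was 0.82 (limma adjusted p = 0.175), and its call also held only without cKO 2 or cKO 4 among the fits that leave out 1 library (up to 0.0904 otherwise).

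**Figure D5:**
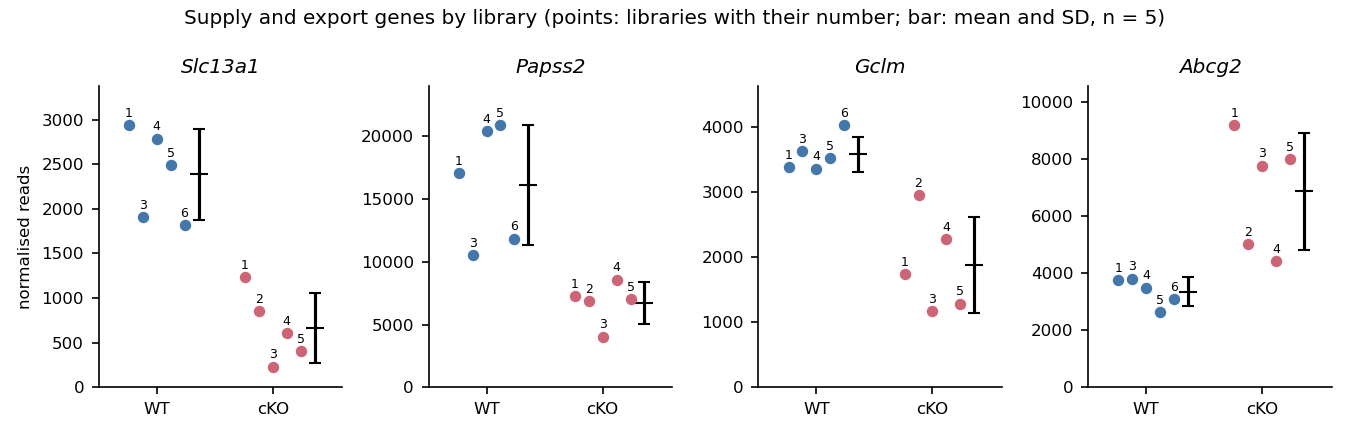
Normalised reads of Slc13a1, Papss2, Gclm and Abcg2 in every library. Points are libraries with their number, and the bar gives the mean and SD of 5. The groups do not overlap in any of the 4 genes, with cKO lower for Slc13a1, Papss2 and Gclm and higher for Abcg2.

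The other 5 lists held no call. Of 19 tested xenobiotic receptors and their partners 15 had negative log2 fold changes, against 49.0% of all genes tested, and the smallest p-values belonged to Nr1i3, the receptor CAR, at -0.89 (limma adjusted p = 0.103) and Nr1h4, the bile acid receptor FXR, at 0.76 (0.126). Of 19 tested Nrf2 targets 14 were negative, against the same 49.0%, led by Txnrd1 at -0.50 (limma adjusted p = 0.122) and Tkt at -0.68 (0.123). In UDP-glucuronate supply, with 12 tested genes, Ugdh, which makes UDP-glucuronate, had -0.31 (limma adjusted p = 0.462) and Pgm1 -0.28 (0.522). Among 12 further genes listed around glutathione enzymes and their relatives, Alox5ap had -0.54 (limma adjusted p = 0.326) and Ptges 0.43 (0.357). Among 8 other conjugating enzymes Acsm5 had -1.36 (limma adjusted p = 0.185). Without cKO 3 and cKO 5 Acsm5 had -0.49 (limma adjusted p = 0.526), Nr1i3 -0.64, Nr1h4 0.69, Txnrd1 -0.56, Tkt -0.53, Ugdh 0.04, Pgm1 0.05, Alox5ap -0.38 and Ptges 0.22.

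Marker genes of the cells that could carry the transferases were read beside them. The 8 villus tip markers gave no call, with a median log2 fold change of -0.68 and summed levels of 279072 to 346107 in WT against 109004 to 232215 in cKO, without overlap. The 12 absorptive enterocyte markers also gave no call, with a median of -0.45 and overlapping sums. A sum is ruled by its most abundant genes, and Apoa4 is in both of these lists. Among single genes tested, 3.01% were lower in every cKO library. The 10 proliferating cell markers had a median of 0.56 with no call. Rises among markers are read against the 0.441% of all genes tested that rose. Of 7 fibroblast markers 2 rose (sums of 5197 to 6736 against 6813 to 10774), and of 7 endothelial markers 1 rose (397 to 560 against 864 to 1533). Liver cell markers summed to at most 273 in any library and pancreatic acinar markers to at most 206, with Cpa1 at 0. Of the remaining marker lists, enteroendocrine genes had 2 of 9 higher and ileal genes 1 of 4, and the others held no call. The part of these shifts in the levels of the transferases was not tested.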

How the data were processed

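RNA-seq of proximal jejunum from 5 WT and 5 cKO mice was deposited as 1 table. Per the submitters' processing notes, which name tools without order, CASAVA, HISAT2 2.0.5, featureCounts 1.5.0-p3, DESeq2 1.20.0 and mm10 were used. The deposited values are a normalised signal: counts divided by 1 size factor per library, and 100% of values came out as whole reads (tolerance 0.001). The authors' deposited log2 fold changes and p-values were only quoted. Strand use in counting is not given in the sources used here. Of the per-sample columns 2 matched no sample label and were not used, and the authors' comparison may rest on them. Samples were grouped by the genotype in the labels, as separate mice.

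The 10 libraries were fitted with limma 3.58.1 (R 4.3.3, trend and robust, log2(value + 1), mean of 10 or more, genotype alone). The added 1 draws the fold changes of low genes toward 0, but means of log2 values give weight to the lowest libraries. Low members went either way. Ugt2b38 had -1.71 with limma, -1.52 with edgeR (TMM) and -1.53 with DESeq2. Gstp3 had -1.49, -1.56 and -1.57 in the same order. Recovered reads were tested with edgeR 4.0.16 (TMM, and library totals) and DESeq2 1.42.0. Other alternatives were pseudocounts of 0.5 and 5, no filter, a mean of 50, totals without mitochondrial and top 50 genes, voom with quality weights, a replicate block, fits without cKO 3 and cKO 5, and leaving out each library. The fits were tested on simulated data with known answers.

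The members, lists and tests were chosen with earlier results of these data known. Named are all members called, the 4 highest in WT and the 3 largest rises and falls of each family, and from each list the genes called or else the 2 with the smallest p, of which 1 gene is not reported here. The other members, given beside their cluster neighbours or to account for the whole family, and Per2 are named outside that rule, with their values seen. Coordinates are mm10, which is GRCm38, and 40 of 44 members have the same coordinates in GENCODE M21. No 2 libraries agreed within sampling noise (lowest chi-square per degree of freedom 19.81).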

Additional observations from a re-analysis of the deposited data

Results flagged for a closer look

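In 74 groups of 5 libraries over 37 genes, 5 values lay further from the rest of their group than Dixon's 95% limit allows, and chance alone would give about 1 in 20 groups. Of these 5 values 4 were in cKO 1, the library with the highest mitochondrial share (9.48%). Gsta1 had 3700 normalised reads in cKO 1 against 950 to 1511 in the other cKO libraries. Ugt2b34 had 17122 there against 6069 to 8425, Ugt2b36 had 56.0 against 4.26 to 13.6, and Ugt2b5 had 90.3 against 8.53 to 30.9. Gstm1 had 5117 in cKO 2 against 1667 to 2370. The levels of Ugt2b34 and Ugt2b36 in cKO 1 were near the highest WT library (17524 and 54.7).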

How the results depend on the processing

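Over 22 alternatives and the 22 named members, 421 of 480 values kept their direction and side of the threshold, 36 lost a call, 9 gained one and 14 changed sign. Only the 4 called members could lose a call, so most of the 480 values could not. The call held in 8 of 22 alternatives for Gstm4, 15 of 21 for Gstp3, 16 of 22 for Gstt2 and 12 of 22 for Sult6b2. Against 2 members lower and 2 higher with limma, DESeq2 called 4 lower and 4 higher, library totals 1 higher (1.14% of all genes called), no filter 1 lower and 1 higher (0.592%), a mean of 50 or more 1 lower (1.74%), and leaving out cKO 3 and cKO 5 1 lower and 1 higher. Leaving out single libraries gave 0 to 3 lower and 0 to 2 higher (0.213% to 4.35% of all genes called), with no member called without WT 4, WT 5 or WT 6. Of the pathway genes 4 were called, 8 with DESeq2, 1 without cKO 3 and cKO 5, and 0 to 9 without single libraries. Library totals and totals without mitochondrial and top genes moved the median over all genes from 0.01 to 0.14 and 0.10 in log2, and Elavl1 from -0.08 to 0.0325 and 0.0186. Sult1b1 turned to -0.00485 with voom. Without cKO 3 and cKO 5, Pgm1 stood at 0.0493, Ugdh at 0.0401 and Ugt2b34 at 0.0158. Without single libraries Sult1b1 ranged from -0.149 to 0.115, Sult1d1 from -0.0454 to 0.228, Sult1a1 from -0.0261 to 0.285 and Gsta1 from -0.195 to 0.295. The UGT median stayed between -1.19 and -0.64, the GST median ran from -0.03 to 0.23, and the SULT median from -0.28 to 0.10, positive with no filter, with a mean of 50 or more and without cKO 3 and cKO 5. The cause of these changes was not tested.

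Libraries of the same number did not deviate together (correlations of 0.118, 0.0218, -0.105 and 0.0957 for numbers 1, 3, 4 and 5, with 1 of 8 libraries closest to its own number). With the replicate block on those 8 libraries 1 member was lower (Ugt1a1) and 0 were higher, with 0.953% of all genes called, and Sult1b1 stood at -0.0411. Without the block on the same 8, 0 were lower and 0 higher (0.633% of all genes called), and Sult1b1 was again -0.0411. No member with few reads can be judged at this depth: 10 of 44 stayed under the filter.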
